A study of Homo sapiens with 13 samples.

Results

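A set of 10 genes for secreted matrix glycoproteins, of 62703 genes in the count tables, was followed through 5 groups of 2 ovarian carcinoma cell lines. They are the fibulins FBLN1, FBLN2 and FBLN5, the fibulin family member HMCN1 (hemicentin), the microfibril proteins FBN2 and MFAP5, the fasciclin-domain proteins POSTN (periostin) and TGFBI, the collagen-binding protein SPARC, and the leucine-rich proteoglycan LUM (lumican). They were picked by symbol with earlier results of these data known, those of the same SKOV3 libraries among them. Their SKOV3 values are therefore given as a description with no test. For members only the OVCAR3 comparison is tested, and whether its results were also known is not given in the sources used here. In SKOV3, 3 libraries came from cells overexpressing RSF1, 3 from cells overexpressing RSF1delUAB and 3 from cells with a control vector. RSF1 is the histone-binding subunit of an ISWI-type chromatin remodeller, and the UAB region missing from RSF1delUAB is the stretch through which it recognises ubiquitinated histone H2A. In OVCAR3, 2 libraries came from cells expressing a UAB peptide and 2 from cells expressing a scrambled control, and all 4 cultures received 2000 ng/mL doxycycline for 6 days. Whether an overexpressing line is a clone or a pool, and whether replicates are separate cultures, is not given in the sources used here. A line and its construct cannot be told apart, and p-values measure the spread between these libraries only.

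Fibulins are secreted proteins built from calcium-binding EGF-like modules that bridge elastic fibres, microfibrils and basement membranes. Fibrillins such as FBN2 polymerise into the microfibrils on which elastin is laid down and which hold latent TGF-beta, and MFAP5 decorates them. Periostin, TGFBI and SPARC are matricellular proteins, which signal to cells through integrins or by binding collagen and growth factors more than they bear load, and lumican spaces collagen fibrils. In ovarian tumours most of these genes are known chiefly from stromal fibroblasts, and periostin and TGFBI are classical TGF-beta-responsive genes.

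Whole-number counts summed to between 15194678 and 18748009 per SKOV3 library and to between 18160558 and 24026993 per OVCAR3 library. Levels below are CPM, read counts relative to TMM-scaled library size, and levels compared between genes are RPKM, per kilobase of merged exons. RSF1 itself stood at 631, 776 and 749.8 CPM in RSF1 cells, at 459, 496 and 509 CPM in RSF1delUAB cells and at 42.2, 47.5 and 42.2 CPM in control cells. ERBB2, known to be amplified in SKOV3, was the highest of 12 carcinoma markers in SKOV3, with means of 2493 CPM in RSF1 cells, 7567 CPM in RSF1delUAB cells and 8430 CPM in control cells. In OVCAR3 the highest was keratin KRT8, at 3839 CPM in UAB peptide cells and 3513 CPM in scrambled peptide cells. The 10 endothelial and the 10 immune markers each summed to at most 8.03 CPM in a SKOV3 library. The 10 mesothelial markers summed to 45.0 to 54.4 CPM in RSF1 cells, 23.3 to 24.3 CPM in RSF1delUAB cells and 27.7 to 29.3 CPM in control cells.

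The members lie on 7 chromosomes, in the coordinates of the count tables on GRCh38. FBLN1 (ENSG00000077942) spans chr22:45502238-45601135 on the plus strand, FBLN2 (ENSG00000163520) chr3:13549125-13638422 on the plus strand and FBLN5 (ENSG00000140092) chr14:91869411-91947987 on the minus strand. Chromosome 5 carries FBN2 (ENSG00000138829) at chr5:128257909-128659185 on the minus strand, TGFBI (ENSG00000120708) at chr5:136028988-136063818 on the plus strand and SPARC (ENSG00000113140) at chr5:151661096-151686975 on the minus strand. POSTN (ENSG00000133110) is at chr13:37562583-37598844, LUM (ENSG00000139329) at chr12:91102629-91111494 and MFAP5 (ENSG00000197614) at chr12:8637346-8662888, all on the minus strand, and HMCN1 (ENSG00000143341) is at chr1:185734391-186190949 on the plus strand. FBN2, SPARC and MFAP5 share exonic bases with a gene on the other strand: FBN2 with SLC27A6 (0.325% of its exonic bases), SPARC with CLMAT3 (4.12%) and MFAP5 with HADHAP2 (1.67%), and how strand was used in counting is not given in the sources used here.

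RefSeq promoter windows (GRCh38.p14, 250 bases before to 50 after a start) exist in the table used for 7 of the 10 members, as 9 windows. Of these, 4 are shown because they set a pair of genes raised by both constructs, FBLN1 and TGFBI, beside the pair with no reads in RSF1delUAB cells, FBN2 and POSTN. Each line gives the bases before the start, stopping where an annotated exon begins, 5′ to 3′ on the gene's strand. Capitals mark matches, on either strand, to the TATA box TATAAA, the AP-1 element TGANTCA or the GC box GGGCGG. The full windows hold further matches that are not printed. The POSTN window has 2 TATA boxes, of which 1 is printed, and the FBLN1 window has 1 GC box, which is not printed. Both unprinted matches lie before the start, in bases left out where an exon begins. FBN2 and TGFBI have 4 GC boxes each, of which 3 are printed. The stretches are chr22:45502633-45502831 (plus), chr5:136028738-136028987 (plus), chr5:128538246-128538495 (minus) and chr13:37598845-37599018 (minus).
FBLN1: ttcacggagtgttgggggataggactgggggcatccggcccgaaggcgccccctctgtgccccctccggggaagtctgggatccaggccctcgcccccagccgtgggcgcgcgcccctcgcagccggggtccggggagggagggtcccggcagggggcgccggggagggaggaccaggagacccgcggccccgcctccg
TGFBI: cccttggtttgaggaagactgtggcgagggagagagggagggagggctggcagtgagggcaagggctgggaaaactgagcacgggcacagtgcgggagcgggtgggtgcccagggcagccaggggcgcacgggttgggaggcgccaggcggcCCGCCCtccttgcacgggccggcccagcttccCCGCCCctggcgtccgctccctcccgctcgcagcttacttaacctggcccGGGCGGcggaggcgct
FBN2: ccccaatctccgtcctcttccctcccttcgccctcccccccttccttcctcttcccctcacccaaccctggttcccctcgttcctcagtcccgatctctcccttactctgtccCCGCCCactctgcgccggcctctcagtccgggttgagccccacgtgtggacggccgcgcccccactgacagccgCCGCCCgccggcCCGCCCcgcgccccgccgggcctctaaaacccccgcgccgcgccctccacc
POSTN: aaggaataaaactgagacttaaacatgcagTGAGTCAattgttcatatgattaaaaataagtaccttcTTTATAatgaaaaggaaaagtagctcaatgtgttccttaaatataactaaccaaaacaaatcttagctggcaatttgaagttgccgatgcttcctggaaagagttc
The POSTN window is poor in CpG, with 3 CpG dinucleotides and 39.0% G and C over its 300 bases. The windows of FBLN1, TGFBI and FBN2 hold 35, 27 and 30 CpG dinucleotides, against a median of 14 over 35116 windows, whose median G and C share is 58.7%. A GC box is in 6 of the 9 member windows and in 45% of all windows, a TATA box in 2 of 9 and 11.5%, and the AP-1 element in 1 of 9, that of POSTN, and 7.71%. Neither the SMAD-binding element CAGACA (16.9% of all windows) nor the E-box CACCTG (20.6%) is in any of the 9. The raised genes differ among themselves: SPARC has 11 CpG dinucleotides and no GC box, while the 2 windows of FBLN2 have 43 and 12 CpG dinucleotides and those of FBLN5 have 35 and 15.

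Of the 10 genes, 7 were higher with both constructs than with the control vector: FBLN1, FBLN2, FBLN5, TGFBI, SPARC, LUM and MFAP5. In the fit over all genes, the call rule (adjusted p under 0.05) sorted 8 members as higher and 1 as lower in RSF1 cells, where 34.3% of the 16735 genes tested were called higher and 32.9% lower. In RSF1delUAB cells it sorted 8 as higher and 2 as lower, against 34.5% and 32.1% of all genes. The members' median log2 fold change was 4.09 in RSF1 cells and 4.02 in RSF1delUAB cells, and the median over all genes was 0.02 in both. Both comparisons use the same 3 control libraries. All 10 members passed the filter on low counts, POSTN only through RSF1 cells. FBLN5 and LUM reached its cutoff in 1 of 3 control libraries, and so passed through the construct lines, where they were high.

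**Figure D1:**
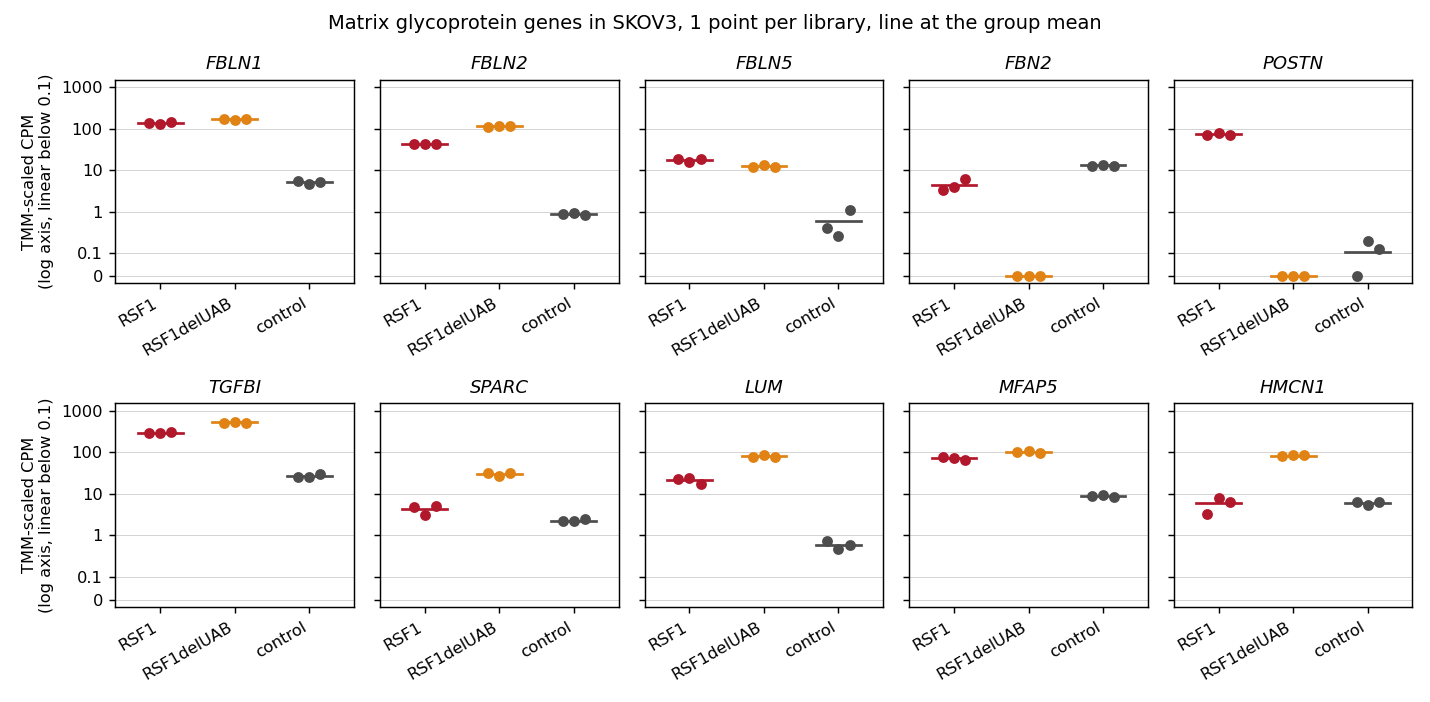
Level of each gene in each SKOV3 library (vertical axis, TMM-scaled CPM, log scale and linear below 0.1), in RSF1, RSF1delUAB and control cells, with a line at each group mean. POSTN and FBN2 lie at 0 in all 3 RSF1delUAB libraries, and HMCN1 lies between 79.97 and 86.5 CPM in RSF1delUAB cells, above both other groups.

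Among the fibulins, FBLN1, which binds fibronectin and basement membrane proteins, had 135, 129 and 140.3 CPM in RSF1 cells, 168, 159 and 169 CPM in RSF1delUAB cells, and 5.43, 4.71 and 5.17 CPM in control cells. FBLN2, found in elastic tissue and basement membranes, had 42.1, 42.8 and 42.1 CPM in RSF1 cells, 110.1, 115 and 113 CPM in RSF1delUAB cells, and 0.860, 0.929 and 0.840 CPM in control cells. The libraries of each gene formed 3 separate levels, highest with RSF1delUAB and lowest with the control vector. FBLN5, which is needed to assemble elastic fibres and binds integrins, ran in another order, with 18.8, 15.8 and 18.3 CPM in RSF1 cells, 12.0, 13.3 and 12.0 CPM in RSF1delUAB cells, and 0.397, 0.265 and 1.10 CPM in control cells. Its log2 fold change over control was 4.88 ± 0.24 (SE) in RSF1 cells and 4.38 ± 0.25 in RSF1delUAB cells, and without control replicate 3, the highest of the control libraries, it was 5.71 and 5.20. The corresponding values were 4.72 ± 0.09 and 5.02 ± 0.09 for FBLN1, and 5.58 ± 0.12 and 6.995 ± 0.12 for FBLN2.

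TGFBI, the fasciclin-domain protein named for its induction by TGF-beta, had 292, 298 and 303 CPM in RSF1 cells, 518, 529.7 and 519 CPM in RSF1delUAB cells, and 26.1, 25.4 and 30.1 CPM in control cells. The 3 groups did not overlap, and the log2 fold changes over control were 3.45 ± 0.07 in RSF1 cells and 4.26 ± 0.08 in RSF1delUAB cells. MFAP5, the microfibril-associated glycoprotein, had 76.5, 73.4 and 66.8 CPM in RSF1 cells, 104, 106 and 98.3 CPM in RSF1delUAB cells, and 8.67, 9.62 and 8.59 CPM in control cells. It followed the same order of groups, at log2 fold changes over control of 3.01 ± 0.09 in RSF1 cells and 3.52 ± 0.09 in RSF1delUAB cells.

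LUM, whose protein core binds collagen fibrils, had 22.6, 23.8 and 17.6 CPM in RSF1 cells, 78.1, 86.4 and 77.1 CPM in RSF1delUAB cells, and 0.728, 0.465 and 0.582 CPM in control cells. SPARC, which binds collagen and calcium, had 4.83, 3.18 and 5.09 CPM in RSF1 cells, 31.7, 27.6 and 32.0 CPM in RSF1delUAB cells, and 2.18, 2.19 and 2.46 CPM in control cells. For SPARC the RSF1 libraries lay just above the control libraries and far below the RSF1delUAB libraries, whereas for LUM both constructs lay far above the control. The log2 fold changes over control were 0.94 ± 0.20 in RSF1 cells and 3.74 ± 0.16 in RSF1delUAB cells for SPARC, and 5.16 ± 0.19 and 7.07 ± 0.17 for LUM. At adjusted p under 0.05, SPARC was the called member of RSF1 cells nearest to the threshold, and HMCN1 the one that missed it.

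All 10 members were sorted as different between the constructs, 3 higher in RSF1 cells (18.5% of all genes were called so) and 7 lower (20.2%). Of them, 6 differed at least 2-fold: POSTN and FBN2 were higher with RSF1 (4.66% of all genes at that size), and HMCN1, SPARC, LUM and FBLN2 were lower (4.18%). POSTN, the integrin ligand periostin, had 70.7, 77.4 and 69.6 CPM in RSF1 cells, no read in any RSF1delUAB library, and 0, 0.199 and 0.129 CPM in control cells, that is 0, 3 and 2 reads. It was therefore on with RSF1 and near 0 in both other groups. Its log2 fold change over control was 9.27 ± 0.22 in RSF1 cells, 8.73 without control replicate 1 and 9.96 without control replicate 2. The control group held only 5 reads, and these values move by more than the SE, which understates the uncertainty. Set against 3 reads over the RSF1delUAB group, its level in RSF1 cells was at least 1266-fold higher. No fold is given for RSF1delUAB against control, where both groups are near 0 and overlap, and that call was lost without control replicate 2, leaving 1 member lower.

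FBN2, the fibrillin of developing tissue, was the member that fell with both constructs. It had 3.39, 3.87 and 6.22 CPM in RSF1 cells, no read in any RSF1delUAB library, and 12.8, 13.4 and 12.7 CPM in control cells. The 3 groups did not overlap. The log2 fold change in RSF1 cells against control cells was -1.53 ± 0.19, and with 3 reads over the group as a floor FBN2 was at least 227-fold lower in RSF1delUAB cells than in control cells. RSF1 cells lay at least 78.7-fold above RSF1delUAB cells.

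HMCN1, a very large fibulin-family protein of basement membrane junctions, had 3.26, 8.07 and 6.22 CPM in RSF1 cells, 79.97, 83.8 and 86.5 CPM in RSF1delUAB cells, and 6.42, 5.38 and 6.53 CPM in control cells. RSF1 and control libraries overlapped, at a log2 fold change of -0.06 ± 0.20, and the RSF1delUAB libraries lay apart at 3.77 ± 0.16 over control. Between the constructs the log2 fold change of RSF1 against RSF1delUAB was -3.83 ± 0.16 for HMCN1, -2.80 ± 0.14 for SPARC, -1.92 ± 0.10 for LUM and -1.41 ± 0.07 for FBLN2. It was smaller for TGFBI (-0.81 ± 0.06), MFAP5 (-0.51 ± 0.07) and FBLN1 (-0.30 ± 0.06), and FBLN5 alone of the genes raised by both was higher with RSF1, at 0.51 ± 0.14. RSF1 transcript differed between the construct lines in the same libraries, at 719 ± 77.0 CPM in RSF1 cells and 488 ± 25.6 CPM in RSF1delUAB cells (SD, n = 3 each), and the part of dose in these differences was not tested.

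**Figure D2:**
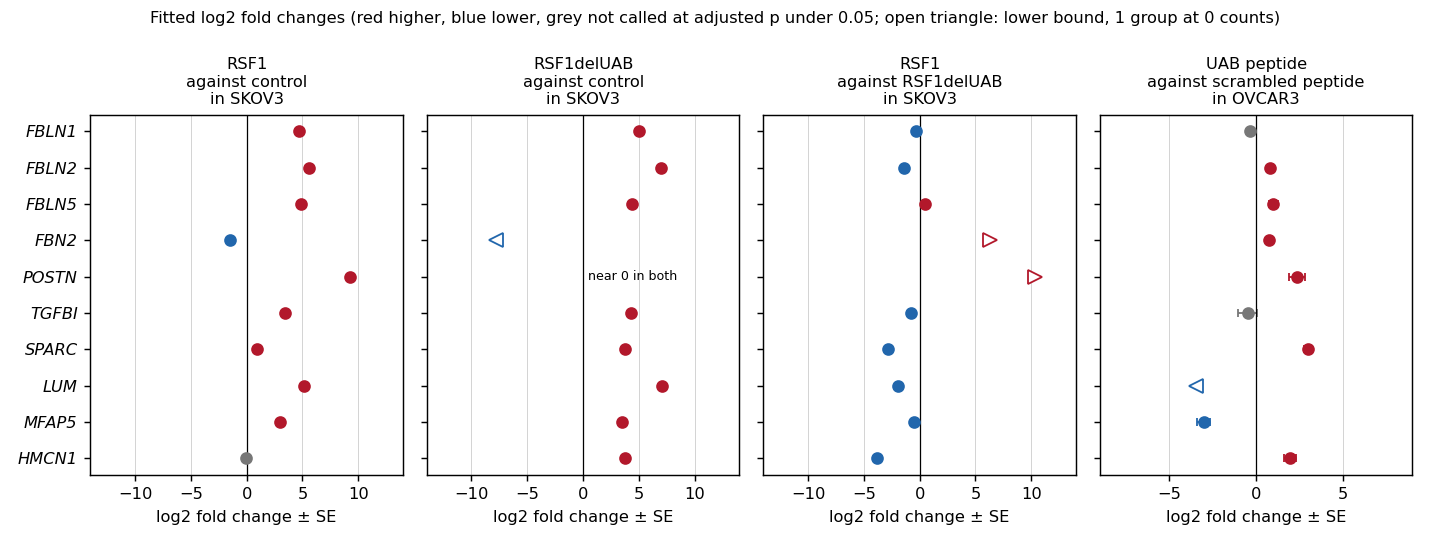
Fitted log2 fold change with its SE for each gene (rows) in the 4 comparisons (panels), coloured by the call at adjusted p under 0.05, with open triangles at a lower bound where a group had no reads. POSTN and FBN2 stand apart between the constructs, and SPARC reaches 2.97 in OVCAR3.

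Per kilobase, TGFBI led in all 3 SKOV3 groups, at 38.6 ± 0.69 RPKM in RSF1 cells, 67.7 ± 0.84 RPKM in RSF1delUAB cells and 3.52 ± 0.33 RPKM in control cells (SD, n = 3 each). In RSF1 cells MFAP5 (18.6 RPKM) and FBLN1 (18.5 RPKM) followed and did not differ beyond their spread, then POSTN (13.3 RPKM), then FBLN2 (8.79 RPKM) and LUM (7.99 RPKM), whose libraries overlapped. In RSF1delUAB cells the order was LUM (30.2 RPKM), MFAP5 (26.5 RPKM), and FBLN2 (23.4 RPKM) and FBLN1 (22.7 RPKM), which overlapped. In control cells MFAP5 came next at 2.30 RPKM, and the remaining 8 members were all below 1 RPKM. HMCN1 and FBN2 were the lowest in RSF1 cells, at 0.312 and 0.261 RPKM, and their libraries overlapped.

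Genes of whole chromosome arms also shifted between these SKOV3 lines, so each member was set beside the other tested genes of its arm. The arm medians of log2 fold change in RSF1 and RSF1delUAB cells against control cells were 0.94 and 0.95 on 22q (FBLN1), 0.64 and 0.56 on 14q (FBLN5), and between -0.01 and 0.01 on 5q (FBN2, TGFBI, SPARC). They were -0.54 and -0.55 on 3p (FBLN2), -0.60 and -0.69 on 13q (POSTN), -0.44 and -0.21 on 12q (LUM), -0.19 and -0.15 on 12p (MFAP5), and -0.52 and -0.54 on 1q (HMCN1). With the arm median taken off, FBLN1 stood at 3.78 and 4.07 and FBLN5 at 4.24 and 3.81 in RSF1 and RSF1delUAB cells, the only raised members that lost more than 0.05 on the log2 scale. HMCN1 in RSF1 cells moved to 0.46 above its arm.

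**Figure D3:**
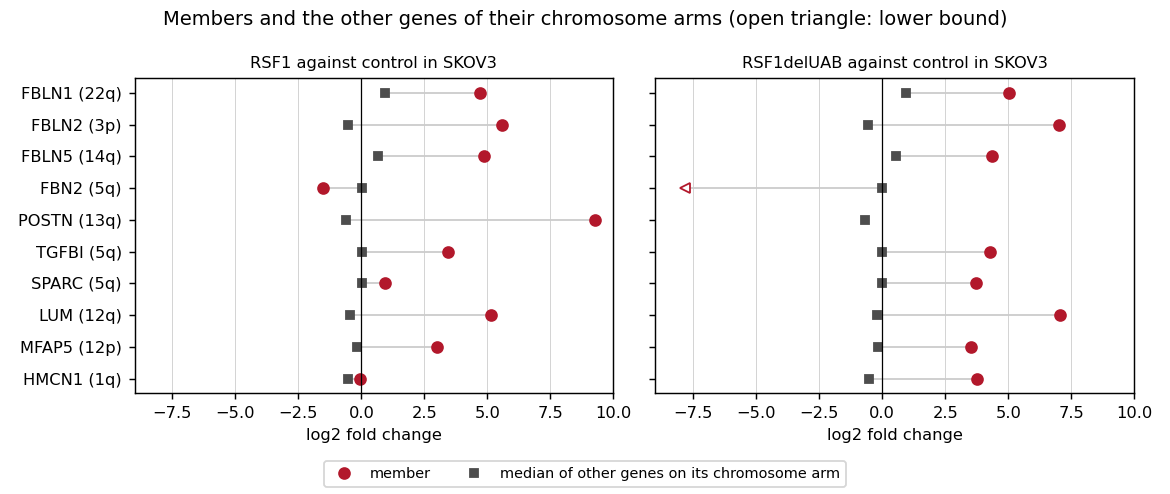
Log2 fold change of each gene (red circles, open triangle at a lower bound) and the median of the other tested genes on its chromosome arm (grey squares), for RSF1 and RSF1delUAB cells against control cells. Arm medians lie between -0.69 and 0.95, and the raised members lie to their right.

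The nearest protein-coding gene on each side of a member was also read, 20 genes of which 15 were tested in SKOV3. In RSF1 cells 10 of the 14 beside a called member were called the same way as it, in RSF1delUAB cells 10 of 15, and between the constructs 8 of 15. Of all genes, 34.3% were called higher and 32.9% lower in RSF1 cells, 34.5% and 32.1% in RSF1delUAB cells, and 18.5% and 20.2% between the constructs. DCN, the decorin gene 28.99 kb from LUM, had 192 reads over the RSF1 group, 460 over the RSF1delUAB group and 3 over the control group. That is 62.2 times the control level in RSF1 cells (95% counting interval 20.96 to 304) and 134 times in RSF1delUAB cells (45.5 to 651). TC2N, 1.88 kb from FBLN5, averaged 3.26 CPM in RSF1 cells, 6.79 CPM in RSF1delUAB cells and 0.175 CPM in control cells. TRPC4, 33.2 kb from POSTN, was called higher with both constructs, at 1.28 CPM in RSF1 cells, 0.626 CPM in RSF1delUAB cells and 0.0215 CPM, from 1 read over the group, in control cells. TRPC4 thus had reads in RSF1delUAB cells, where POSTN had none. Beside FBLN2, HDAC11 was called higher and WNT7A lower with both constructs.

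Across the 9 SKOV3 libraries, the patterns most like those of FBLN1 and FBN2 were measured as the root mean square difference of centred log2 CPM. A small fixed value was added to each CPM before the log, so the distance of a gene near 0 in any group depends on it. For FBLN1 the nearest were BCAM, a laminin receptor (0.186), an unnamed gene (ENSG00000278965, 0.197) and ACKR3, a chemokine receptor (0.232). In control cells ENSG00000278965 averaged 0 CPM and ACKR3 0.0221 CPM, so the likeness of these genes to FBLN1 depends on the added value. BCAM averaged 95.5 CPM in RSF1 cells, 87.5 CPM in RSF1delUAB cells and 2.96 CPM in control cells. For FBN2 the nearest were IL1A, the cytokine interleukin-1 alpha (0.498), GGT4P (0.574) and FAM230C (0.883). In RSF1delUAB cells FBN2 and GGT4P stood at 0 CPM and FAM230C at 0.0999 CPM, so the FBN2 distances depend on the added value too. IL1A averaged 88.1 CPM in RSF1 cells, 3.47 CPM in RSF1delUAB cells and 181 CPM in control cells, the same order of groups as FBN2.

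In OVCAR3 the UAB peptide went with higher FBLN2, FBLN5, FBN2, POSTN, SPARC and HMCN1 and with lower LUM and MFAP5. FBLN1 and TGFBI did not pass the test. Sorting the members by construct did not use OVCAR3 values, but picking them may have. The OVCAR3 tests are therefore not known to be independent of that choice. Of the 10 members, 6 were called higher (edgeR quasi-likelihood test, Benjamini-Hochberg adjusted p under 0.05), against 5.45% of the 18359 genes tested, and 2 lower, against 5.46%. The members' median log2 fold change was 0.78, against 0.01 over all genes. LUM, 1 of the 2 lower, and POSTN, 1 of the 6 higher, passed the filter on low counts only through the group where they were high, so these counts and the median are a description. RSF1 itself had 787 and 586 CPM in UAB peptide cells, against 564 and 707 CPM in scrambled peptide cells (log2 fold change 0.11 ± 0.16, adjusted p = 0.724). With 2 libraries a group there were 2 residual degrees of freedom, and the fit shares spread across genes.

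**Figure D4:**
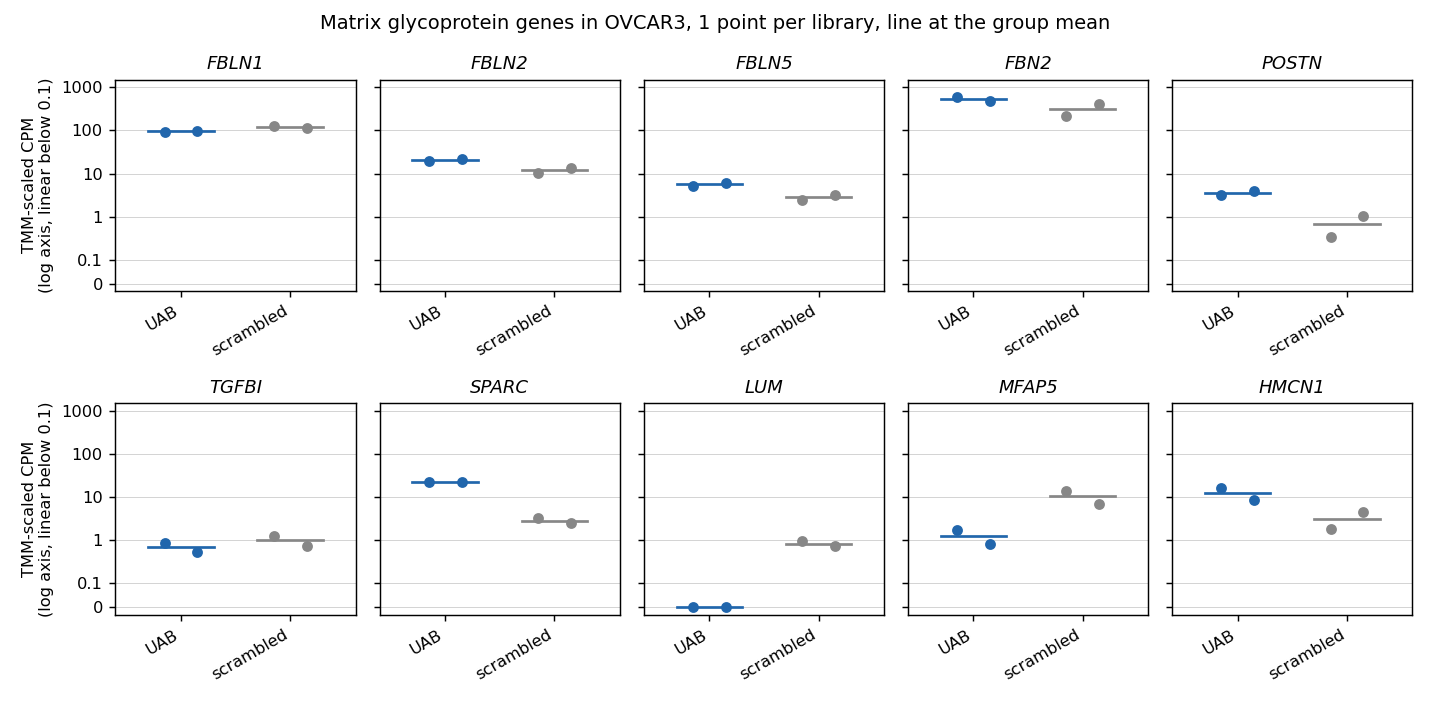
Level of each gene in each OVCAR3 library (vertical axis, TMM-scaled CPM, log scale and linear below 0.1), in UAB peptide and scrambled peptide cells, with a line at each group mean. SPARC lies at 22.3 CPM or more in UAB peptide cells and at 3.21 CPM or less in scrambled peptide cells, and LUM lies at 0 in both UAB peptide libraries.

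SPARC had the smallest p of the 10, with 22.7 and 22.3 CPM in UAB peptide cells, against 3.21 and 2.51 CPM in scrambled peptide cells. Replicates within a group were close and the groups lay far apart (log2 fold change 2.97 ± 0.20, adjusted p = 5.92e-07). POSTN had 3.19 and 3.93 CPM in UAB peptide cells, against 0.342 and 1.04 CPM in scrambled peptide cells. Its groups did not overlap, although the scrambled libraries stood apart from each other (2.36 ± 0.45). POSTN passed the filter on low counts only through the UAB peptide libraries, so no p-value is given for it. HMCN1 had 15.9 and 8.62 CPM in UAB peptide cells, against 1.84 and 4.54 CPM in scrambled peptide cells. Both groups were spread, without overlap (1.95 ± 0.35, adjusted p = 0.00247).

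The fibulins moved less. FBLN2 had 20 and 22.2 CPM in UAB peptide cells, against 10.5 and 13.8 CPM in scrambled peptide cells, a log2 fold change of 0.80 ± 0.18 (adjusted p = 0.00955). FBLN5 had 5.10 and 6.06 CPM in UAB peptide cells, against 2.44 and 3.15 CPM in scrambled peptide cells (0.99 ± 0.27, adjusted p = 0.0286). Both genes were higher in each UAB peptide library than in each scrambled one. FBLN1 was the reverse without passing the test, with 91.6 and 98.1 CPM in UAB peptide cells, against 129.9 and 111 CPM in scrambled peptide cells (-0.35 ± 0.14, adjusted p = 0.124). FBN2, at 597 and 469 CPM in UAB peptide cells, against 213 and 413 CPM in scrambled peptide cells, was also higher (0.77 ± 0.23, adjusted p = 0.0431). Its lower UAB peptide library stood close to its higher scrambled one.

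MFAP5 and LUM fell. MFAP5 had 1.72 and 0.819 CPM in UAB peptide cells, against 13.98 and 7.0 CPM in scrambled peptide cells (-3.03 ± 0.38, adjusted p = 0.000129). LUM had no read in either UAB peptide library, against 0.941 and 0.735 CPM in scrambled peptide cells, from 22 and 17 reads. It was at least 10.8-fold lower with 3 reads over the group as a floor and had passed the filter on low counts only through the scrambled peptide libraries, and at this depth absence cannot be told from a level under that floor. TGFBI, the leading member in SKOV3, was at 0.882 and 0.546 CPM in UAB peptide cells, against 1.28 and 0.735 CPM in scrambled peptide cells, and the groups overlapped (-0.49 ± 0.54, adjusted p = 0.63).

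Some of these calls rested on 1 library or on the test. Without scrambled replicate 1, FBLN2 (log2 fold change 0.61), FBLN5 (0.82) and FBN2 (0.37) no longer passed, which left 3 members called higher. FBLN5 also missed the threshold without UAB peptide replicate 2 (0.87), and FBN2 stood at 1.32 without scrambled replicate 2. With DESeq2, FBLN5, FBN2 and HMCN1 did not pass, at log2 fold changes of 0.99, 0.76 and 1.94. SPARC, HMCN1 and MFAP5 kept their calls with each library left out in turn. Their log2 fold changes were 2.81 to 3.16 for SPARC, 1.44 to 2.74 for HMCN1 and -3.67 to -2.45 for MFAP5. POSTN, at 1.77 to 3.35, and LUM were also called each time. For these genes that is a description, since they passed the filter on low counts only through the group where they were high. The outermost values came without scrambled replicate 2 for POSTN and HMCN1 and without UAB peptide replicate 1 for MFAP5.

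Per kilobase, FBN2 led in OVCAR3, at 30.9 ± 5.23 RPKM in UAB peptide cells and 18.1 ± 8.22 RPKM in scrambled peptide cells (SD, n = 2 each). In scrambled peptide cells its libraries overlapped those of FBLN1 (16.5 RPKM), the next in order, and in UAB peptide cells FBLN1 followed at 13.02 RPKM. SPARC came after FBLN1 in UAB peptide cells at 4.84 RPKM, and in scrambled peptide cells, at 0.615 RPKM, it stood below MFAP5 (2.697 RPKM) and FBLN2 (2.52 RPKM), with libraries that overlapped those of FBLN5 (0.577 RPKM). TGFBI was at 0.0925 RPKM in UAB peptide cells and 0.131 RPKM in scrambled peptide cells. Of the 9 neighbours tested beside a called member, 1 was called, in the other direction, in a comparison where 5.45% of all genes were called higher and 5.46% lower.

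Beyond the 10 genes, other genes of the same matrix classes were counted with the members left out of each list. The lists too were chosen with earlier results of these data known. Their counts are therefore a description in both lines, and p-values of genes named from them are not an independent test. The shares of all tested genes to read them against were 34.3% higher and 32.9% lower in RSF1 cells, and 34.5% and 32.1% in RSF1delUAB cells. Of 18 tested elastic fibre and microfibril genes, 13 were called higher and 2 lower in RSF1 cells, with a median log2 fold change of 1.55, and 11 higher and 4 lower in RSF1delUAB cells, with a median of 1.22. LOX, the enzyme that crosslinks elastin and collagen, averaged 199 ± 2.62 CPM in RSF1 cells, 105 ± 2.52 CPM in RSF1delUAB cells and 22.6 ± 0.78 CPM in control cells (SD, n = 3 each). EMILIN2, an elastic fibre interface protein, rose with both constructs (2.92 ± 0.08 in RSF1 cells and 3.26 ± 0.08 in RSF1delUAB cells, adjusted p = 4.61e-17 and 8.25e-18). FBN1, the major fibrillin, was at 133 ± 29.7 CPM in RSF1 cells, 201 ± 16.1 CPM in RSF1delUAB cells and 137 ± 10.2 CPM in control cells, and passed the test only with RSF1delUAB among the comparisons with control (adjusted p = 0.762 in RSF1 cells and 0.000227 in RSF1delUAB cells).

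Matricellular genes split, with 9 of 19 higher (47.4%) and 5 lower (26.3%) in RSF1 cells and 12 higher (63.2%) and 5 lower in RSF1delUAB cells. THBS1, the thrombospondin that activates latent TGF-beta, rose to 311 ± 37.2 CPM in RSF1 cells and 117 ± 3.83 CPM in RSF1delUAB cells, against 16.1 ± 0.94 CPM in control cells. Osteopontin SPP1 fell to 314 ± 30.3 CPM in RSF1 cells, against 937 ± 29.8 CPM in control cells (log2 fold change -1.58 ± 0.07, adjusted p = 5.12e-14). Of the 5 small leucine-rich proteoglycans tested, 4 were higher in each construct line, with 0 lower in RSF1 cells and 1 lower in RSF1delUAB cells. Of 9 basement membrane glycoproteins, 6 were higher in each, with 1 lower in RSF1 cells and 2 lower in RSF1delUAB cells. The largest rise was that of perlecan HSPG2, at 413 ± 156 CPM in RSF1 cells, 319 ± 27.3 CPM in RSF1delUAB cells and 2.98 ± 0.52 CPM in control cells.

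Of 16 other matrix glycoproteins, 12 rose and 3 fell in RSF1 cells, and 13 rose and 2 fell in RSF1delUAB cells. CTHRC1, a secreted collagen-associated protein, rose by 5.81 ± 0.22 on the log2 scale in RSF1 cells and by 7.53 ± 0.20 in RSF1delUAB cells (6.72 and 8.44 without control replicate 1). Fibronectin FN1 was at 8073 ± 1986 CPM in RSF1 cells, 3078 ± 157 CPM in RSF1delUAB cells and 309 ± 23.0 CPM in control cells, so that it was higher with RSF1 than with RSF1delUAB (1.39 ± 0.11, adjusted p = 6.79e-09). Among receptors and processing enzymes, 11 of 18 rose and 3 fell in RSF1 cells, and 12 rose and 5 fell in RSF1delUAB cells. Integrin beta subunit ITGB3, whose pairing with ITGAV forms a receptor for periostin and TGFBI, rose to 89.9 ± 5.25 CPM in RSF1 cells and 90.3 ± 2.15 CPM in RSF1delUAB cells, against 4.84 ± 0.50 CPM in control cells. ITGAV itself fell, at 242 ± 23.3 CPM in RSF1 cells, 220.4 ± 0.97 CPM in RSF1delUAB cells and 454 ± 18.2 CPM in control cells.

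TGF-beta pathway genes were near the shares over all genes, with 8 of 18 higher (44.4%) and 7 lower (38.9%) in RSF1 cells and 7 higher and 7 lower (38.9% each) in RSF1delUAB cells, with medians of 0.06 and -0.07 on the log2 scale. The ligand TGFB2 rose in RSF1 cells (2.65 ± 0.26, adjusted p = 2.32e-08). PMEPA1, a TGF-beta response gene, rose in RSF1delUAB cells to 335 ± 7.76 CPM, against 113 ± 5.23 CPM in control cells.

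**Figure D5:**
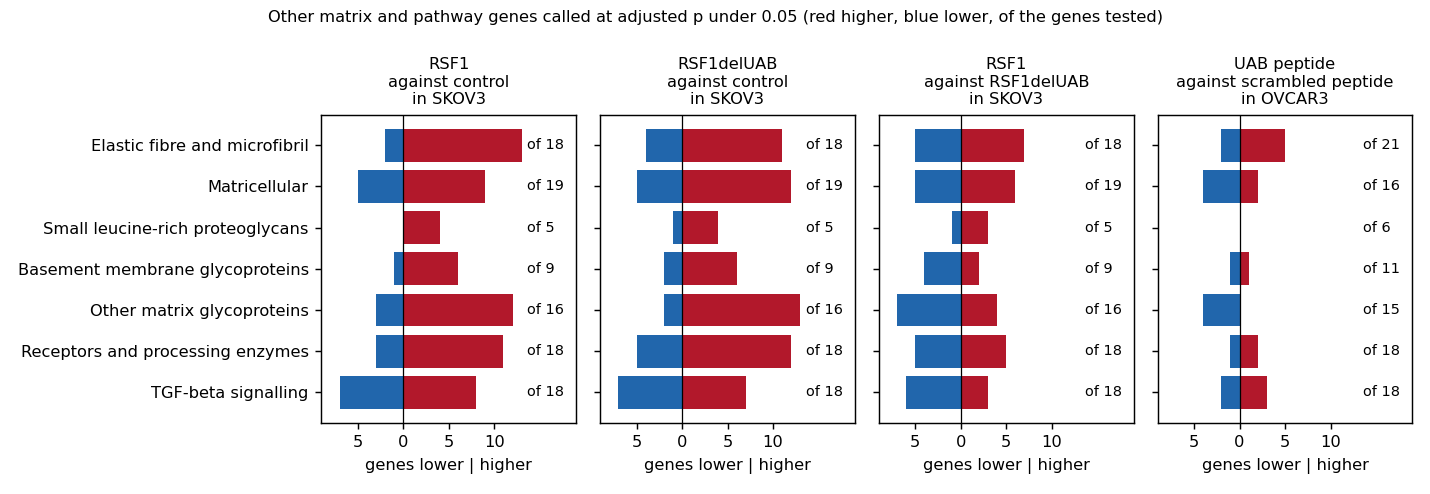
Number of tested genes of each list, members left out, called higher (red, right of 0) or lower (blue, left of 0) at adjusted p under 0.05 in the 4 comparisons, with the number tested beside each bar. In SKOV3 the 13 elastic fibre genes higher in RSF1 cells stand beside 2 lower, and in OVCAR3 5 are higher and 2 lower.

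In OVCAR3, where 5.45% of all genes were called higher and 5.46% lower, 5 of 21 elastic fibre genes were higher (23.8%) and 2 lower (9.52%). Of 16 matricellular genes 2 were higher (12.5%) and 4 lower (25.0%), and 4 of 15 other matrix glycoproteins were lower (26.7%). HMCN2, the paralog of HMCN1, fell by 2.69 ± 0.42 on the log2 scale (adjusted p = 0.000744), the opposite direction to HMCN1, and EMILIN2 fell by 1.34 ± 0.22 (adjusted p = 0.00108). CTHRC1 fell to 15.7 ± 0.42 CPM in UAB peptide cells, against 50.1 ± 4.24 CPM in scrambled peptide cells (SD, n = 2 each), a log2 fold change of -1.67 ± 0.15 with adjusted p = 6.65e-06. Integrin ITGB5 rose to 373 ± 1.15 CPM in UAB peptide cells, against 99.98 ± 3.16 CPM in scrambled peptide cells (1.90 ± 0.13, adjusted p = 6.22e-07). Of 18 TGF-beta pathway genes 3 were higher (16.7%), 2 lower (11.1%) and 13 not called, with a median log2 fold change of 0.07. Among those higher, TGFB2 rose to 31.4 ± 3.46 CPM in UAB peptide cells, against 6.20 ± 2.17 CPM in scrambled peptide cells (2.34 ± 0.21, adjusted p = 7.94e-06). Latent TGF-beta binding protein LTBP1 rose by 0.86 ± 0.13 (adjusted p = 0.000818).

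Since several members are known as fibroblast genes, 11 other fibroblast markers were read in the same libraries. Their summed level ran from 460 to 604 CPM in RSF1 cells, from 408 to 434 CPM in RSF1delUAB cells and from 1878 to 2046 CPM in control cells, most of it S100A4, which averaged 480 CPM in RSF1 cells, 376 CPM in RSF1delUAB cells and 1970.0 CPM in control cells. Of the 7 tested, 6 were higher and 1 lower in RSF1 cells, and 5 higher and 1 lower in RSF1delUAB cells. Of all genes, 34.3% were called higher and 32.9% lower in RSF1 cells, and 34.5% and 32.1% in RSF1delUAB cells. COL1A1 averaged 18.9 CPM in RSF1 cells and 3.19 CPM in control cells. COL1A2 averaged 7.16 CPM in RSF1 cells, 16.7 CPM in RSF1delUAB cells and 2.85 CPM in control cells. The marker DPT had no reads in either construct line, and PDGFRB none in RSF1delUAB or control cells. In OVCAR3 the sum ran from 95.1 to 115 CPM in UAB peptide cells and from 122 to 138 CPM in scrambled peptide cells, the group with the lower SPARC and POSTN and the higher MFAP5 and LUM. Of the 4 fibroblast markers tested in OVCAR3, 0 were higher and 2 lower, COL1A2 (-1.37 ± 0.20) and S100A4 (-0.56 ± 0.15). Of all genes there, 5.45% were called higher and 5.46% lower. The mesothelial markers summed to 276 to 296 CPM in UAB peptide cells and 418 to 419 CPM in scrambled peptide cells. Of 6 tested, 1 was higher, WT1 (2.20 ± 0.19 on the log2 scale), and 3 were lower, among them CALB2 (-2.69 ± 0.27) and MSLN (-1.004 ± 0.13). The immune markers summed to 4.51 to 6.17 CPM in UAB peptide cells and 11.1 to 11.9 CPM in scrambled peptide cells, and CD14 was lower (-2.64 ± 0.32). The endothelial markers summed to 18.9 to 24.5 CPM in UAB peptide cells and 13.7 to 16.3 CPM in scrambled peptide cells. The part of other cells in the members' values was not tested, and in bulk RNA fewer cells of a type and less RNA per cell cannot be told apart.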

How the data were processed

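Poly-A RNA libraries of SKOV3 and OVCAR3 were analysed from 1 table per line in which the authors deposited raw counts for each gene, without scaling, beside its length in bases. Per the submitters' processing notes, FastQC, STAR 2.7.9a and Subread were used, and the builds listed are GRCh38, hg38 and GRCm38. Neither the annotation release nor the strand setting of the counting is given in the sources used here. A gene record broken over several lines was rejoined, and 78 genes without a symbol kept their identifier.

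Each line was fitted alone in R 4.3.3 with edgeR 4.0.16 (limma 3.58.1): TMM scaling, filterByExpr at a minimum count of 10, quasi-likelihood tests over all groups of the line, and Benjamini-Hochberg adjustment over every gene tested. All 10 members were tested in both lines. The script was tested on simulated data. The SE of a log2 fold change was taken as its size divided by the square root of the F statistic. Bounds use 3 reads over a group, and counting intervals (95%, exact) cover counting error only.

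The members and gene lists were chosen with earlier results of these data known. Named are all members, RSF1, and per list and comparison up to 2 largest rises and falls with adjusted p under 0.05, groups without overlap and a log2 CPM averaging 1 or more. A gene named in one comparison may be given in others, and a gene that the rule takes is not reported here. ERBB2, KRT8 and the neighbours named were chosen after their values were seen. The 3 most alike genes are named for FBLN1 and FBN2. Chromosome arms were split at the widest gap between genes. Alternatives were DESeq2 1.42.0, its size factors in edgeR, other filters, 2-group fits, a replicate block and leaving out each library.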

Additional observations from a re-analysis of the deposited data

How the results depend on the processing

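None of the members' fold changes reversed its direction where it was called. Of 486 member fold changes recomputed under the alternatives, 463 stayed the same, 15 moved when the median of the chromosome arm was taken off, and 8 no longer passed. For refits, the same means on the same side of the threshold and, where called, in the same direction. Of the 463, 25 were values less the arm median, which have no p-value and so no side of the threshold. HMCN1 in RSF1 cells against control cells, which was not called, ranged from -0.34 to 0.22 on the log2 scale. The count of members lower in RSF1delUAB cells than in control cells was 2 in the fit of all SKOV3 groups and 1 with only the 2 groups compared. It ranged from 1 to 2 with each library left out in turn, and the change lay in POSTN, which had too few reads to be tested with only the 2 groups and did not pass without control replicate 2 (log2 fold change -3.25).

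In OVCAR3, 3 members were higher and 1 lower with DESeq2, which gave LUM no adjusted p, and 1 was lower with a minimum count of 30, where LUM was not tested. With each library left out in turn, 3 to 6 members and 633 to 1194 of all genes were higher, and 707 to 1045 genes were lower. Leaving out scrambled replicate 1 gave the 633.

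Replicate numbers showed no clear pairing of the libraries in SKOV3. Deviations of same-numbered libraries correlated there at -0.0622 to 0.0948, and 4 of 9 libraries were closest to one of their own number. In OVCAR3 the correlation was -0.224 for same-numbered and 0.224 for other-numbered libraries, and 0 of 4 were closest to one of their own number. With 2 libraries a group these are 1 value with its sign turned, and the 0 of 4 follows from that sign. They cannot tell whether the OVCAR3 libraries were paired. With a replicate block, 6 members were higher and 2 lower in OVCAR3, with 928 and 842 genes, and 8 and 1 in RSF1 cells against control cells, 8 and 2 in RSF1delUAB cells against control cells, and 3 and 7 in RSF1 against RSF1delUAB cells. A crossed replicate block, chosen after seeing the data, gave 2560 genes higher and 2537 lower in OVCAR3. Few reads limit POSTN and LUM at their low levels, and with 2 libraries a group the OVCAR3 spread is poorly known.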
